A study of Mus musculus with 8 samples.

Results

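The genes described here encode 10 surface molecules through which activated B cells signal to other cells or receive signals: Cd69, Cd80, Cd86, Cd83, Cd44, Fas, Icosl, Il2ra, Cd274 and Slamf1. They were taken by gene name from the deposited tables, which list 53242 genes, and each of the 10 was among the 14218 genes with enough reads to be tested. The samples were splenic B cells of C57BL/6 mice aged 8 to 12 weeks, kept for 24 h in culture on irradiated CD40LB cells with 40 ng/ml of IL4. CD40LB cells are feeder fibroblasts that present CD40 ligand and BAFF, and they were depleted with an antibody to H-2Kd before RNA was isolated. The 4 control mice were Eif4a1+/+ CD23-cre and the 4 knockout mice (4A1 KO) were Eif4a1fl/fl CD23-cre, so the Cre transgene was present in both genotypes. This Cre is driven by the CD23 promoter and deletes in splenic immature B cells and later stages. Deletion was therefore under way before the cells were put in culture. Each library came from 1 mouse. Batch A held replicates 1 (male) and 2 (female) of each genotype, and batch B held replicates 3 (male) and 4 (female). Replicate 1 of both genotypes was excluded from differential expression by the authors for reduced viability, so tests used replicates 2 to 4 (n = 3 per genotype) with batch and sex as covariates, and all 8 libraries were used as an alternative. The values of replicate 1 are given throughout. The question was how loss of EIF4A1, an RNA helicase of translation initiation, altered the transcriptome of activated B cells.

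Activated B cells present antigen to T cells, and the outcome depends on the ligands that they display with it. CD80 and CD86 are the B7 ligands that engage CD28 and CTLA4 on T cells, ICOSL engages ICOS, and PD-L1, encoded by Cd274, engages the inhibitory receptor PD-1. CD25, encoded by Il2ra, is the alpha chain that gives the IL2 receptor its high affinity. CD69 is an early activation antigen that holds the sphingosine 1-phosphate receptor S1PR1 inside the cell, CD83 stabilises MHC class II and CD86 at the surface, CD44 binds hyaluronan, FAS is a death receptor, and SLAMF1 is a self-ligand adhesion receptor. Ligation of CD40 acts on many of these genes through NF-kB, and IL4 acts through STAT6.

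The promoters of the 3 genes that passed both thresholds of the genotype test (Il2ra, Cd80 and Slamf1) are shown because NF-kB, AP-1 and STAT6 are the factors downstream of the stimuli used here. Each run holds 300 bases, from 250 before to 50 after the start site in RefSeq annotation of GRCm38.p6, read 5′ to 3′ on the plus strand, which is the strand of all 3 genes. Capitals mark matches on either strand to the letters searched, which were GGG, any 5 bases and CC for NF-kB, TGANTCA for AP-1, and TTC, any 4 bases and GAA for STAT6.
Il2ra, chr2:11642542-11642841: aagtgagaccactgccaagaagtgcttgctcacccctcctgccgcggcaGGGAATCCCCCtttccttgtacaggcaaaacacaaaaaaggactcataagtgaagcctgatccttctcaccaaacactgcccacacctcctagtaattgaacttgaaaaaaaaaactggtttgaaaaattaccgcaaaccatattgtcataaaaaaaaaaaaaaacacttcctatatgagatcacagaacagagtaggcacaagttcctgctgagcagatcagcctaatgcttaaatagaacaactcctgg
Cd80, chr16:38458683-38458982: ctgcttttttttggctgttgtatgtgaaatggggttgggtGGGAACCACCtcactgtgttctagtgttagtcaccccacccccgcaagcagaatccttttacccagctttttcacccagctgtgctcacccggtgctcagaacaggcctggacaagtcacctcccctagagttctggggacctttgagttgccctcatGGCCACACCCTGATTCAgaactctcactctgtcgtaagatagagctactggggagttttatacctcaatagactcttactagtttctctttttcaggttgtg
Slamf1, chr1:171766882-171767181: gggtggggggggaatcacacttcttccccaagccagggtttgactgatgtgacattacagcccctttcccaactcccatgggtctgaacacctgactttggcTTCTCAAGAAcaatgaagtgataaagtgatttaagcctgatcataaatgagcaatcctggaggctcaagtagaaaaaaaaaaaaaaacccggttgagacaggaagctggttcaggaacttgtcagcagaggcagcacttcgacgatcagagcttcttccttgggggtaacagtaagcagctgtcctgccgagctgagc
The Il2ra promoter held GGGAATCCCC from position -201, which matched the NF-kB letters on both strands, with a further match on the minus strand that overlaps it by all but 1 base. The Cd80 promoter held NF-kB matches at -210 and -52 and an AP-1 match at -42. The Slamf1 promoter held no match to the NF-kB or AP-1 letters and a STAT6 match at -148. The RefSeq table held promoters of 7 of the 10 genes (Cd80, Cd44, Fas, Icosl, Il2ra, Cd274 and Slamf1). At least 1 NF-kB match was found in 5 of these 7 and in 50.8% of all 32851 promoters of the table. AP-1 matches were found in 2 of 7 (Cd80 and Fas) against 7.81% of all promoters, and STAT6 matches in 2 of 7 (Cd44 and Slamf1) against 6.95%. The CRE letters TGACGTCA were in 0 of 7 and in 1.79% of all. These are descriptions of letters and not of binding.

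Between 31727557 and 43210858 reads were counted on genes per library, with the lowest total in 4A1 KO replicate 1. The 10 genes held between 251 reads (Cd80 in control replicate 1) and 36598 reads (Cd44 in 4A1 KO replicate 4) in a library. CPM are read counts scaled to library size after TMM normalisation, and the standard deviations (SD) are between libraries. Eif4a1 itself had 748 to 940 CPM in the control libraries and 556 to 689 CPM in the 4A1 KO libraries, with no overlap, which follows the genotype labels. Its fitted log2 fold change was -0.44 (SE 0.05), for reads over the whole gene, in which exons 2 to 4 are flanked by loxP. Markers of B cells were abundant, with Ms4a1, which encodes CD20, at 517 to 653 CPM and Pax5 at 883 to 1413 CPM. The 7 B cell markers summed to 3584 to 3807 CPM in control and 2917 to 3155 CPM in 4A1 KO libraries. Of these, Cd79a, Cd79b, Cd22 and Blk fell by 0.67, 0.89, 0.76 and 0.67 on the log2 scale, of which Cd79a was not called without the replicate block (adjusted p 0.091) or with glmTreat (0.054). The 6 T cell markers summed to at most 0.0999 CPM. Of feeder RNA, Cd40lg did not exceed 0.148 CPM and Postn was at 0 in all 8 libraries. The 11 fibroblast markers summed to 28.8 to 51.2 CPM in control and 25.0 to 37.0 CPM in 4A1 KO libraries. They were uneven between libraries. Col1a1 was at 27.4 CPM in control replicate 2, 5.25 to 9.32 CPM in the other control libraries and 6.22 to 16.1 CPM in 4A1 KO libraries. Thy1 reached 31.3 CPM in control replicate 4. Of the fibroblast markers, Fn1 was called higher (log2 fold change 0.86, adjusted p 0.022) and Col3a1, at most 0.940 CPM, lower (-1.57, adjusted p 0.044). Fn1 was not called without replicate 3 (adjusted p 0.057), nor Col3a1 without replicate 4 (0.22). The 7 myeloid markers summed to 8.68 to 14.7 and 14.2 to 16.4 CPM, with Adgre1 called higher (log2 fold change 0.62, or 0.43 and not called without replicate 4) and Cd14 at most 0.0467 CPM. The 6 dendritic and NK cell markers summed to 21.2 to 28.4 and 27.7 to 43.0 CPM, most of it Zbtb46 (0.68, called). In the same list Flt3 fell by 1.89, and Ncr1 and Klrb1c were at 0. The part of these lists in the results below was not tested. In bulk RNA, fewer cells of a type and less RNA per cell cannot be told apart.

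Between genotypes, Il2ra and Cd80 rose and Slamf1 fell, and the other 7 genes changed too little or too variably to be called. Calls required an absolute log2 fold change above 0.5 together with an adjusted p under 0.05 in the edgeR quasi-likelihood test (Benjamini-Hochberg over all 14218 genes). By these criteria 3 of the 10 genes were called, and 25.3% of all tested genes were. In the upward direction 2 of 10 were called against 11.6% of all genes, and in the downward direction 1 of 10 against 13.7%. The adjusted p alone was under 0.05 for 8 of 10, against 53.0% of all genes, so most of the small differences below belong to a transcriptome in which small differences were common. The median log2 fold change of the 10 genes was -0.03 and that of all genes 0.01. In the deposited TPM the same 3 genes were called, against 20.2% of the genes tested on that scale. Over all 8 libraries the genotypes did not overlap for 3 of 10 genes, Il2ra above control and Cd83 and Fas below, against 36.8% of all genes. Among the 4 pairs of same-numbered libraries, the sign of the difference varied for Cd44 and Cd274 and was constant for the other genes. How often it was constant over all genes was not counted.

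**Figure D1:**
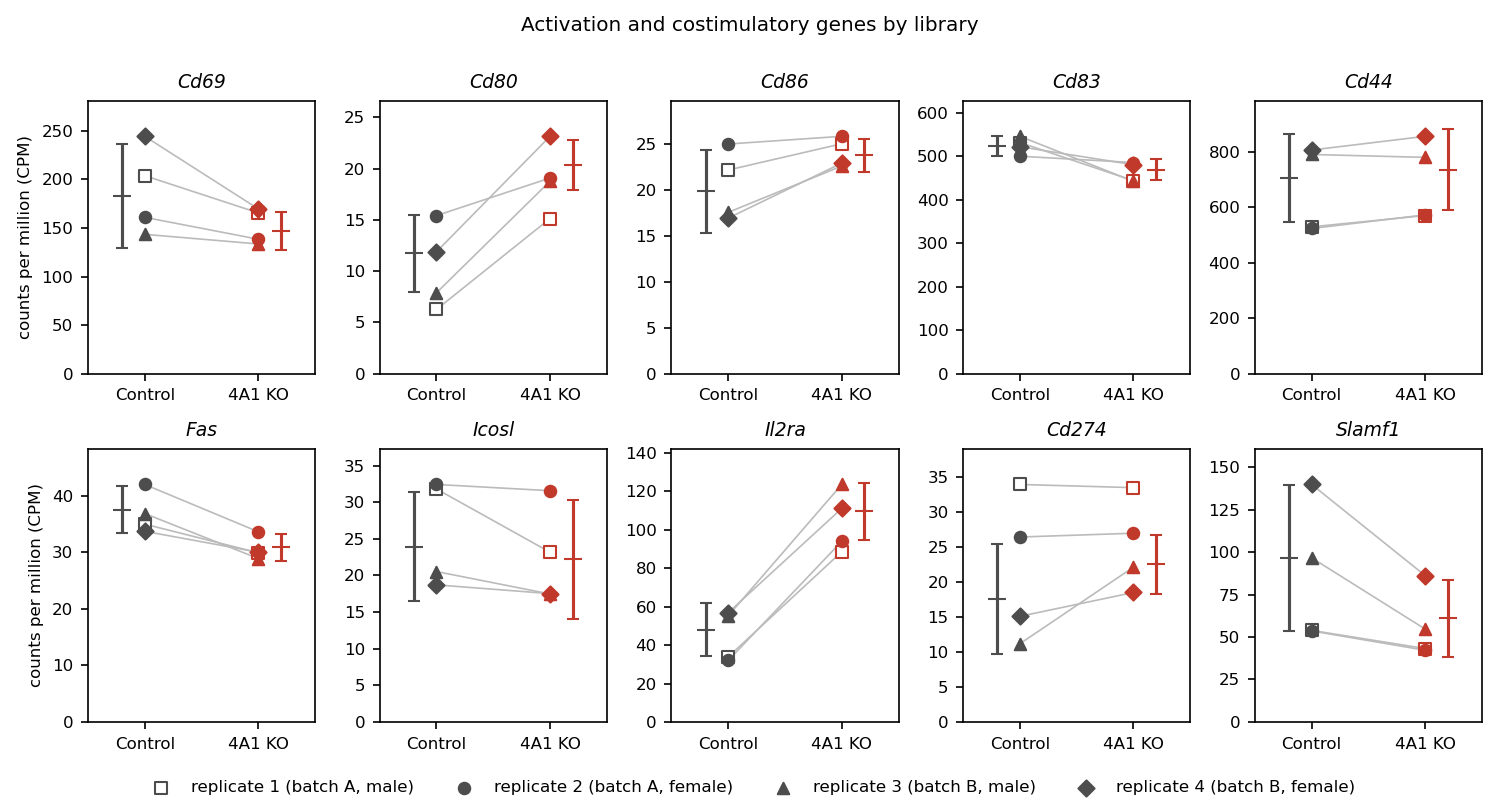
Normalised read counts (CPM, linear axis from 0) of the 10 genes in each of the 8 libraries. Grey and red symbols are control and 4A1 KO libraries, lines join the libraries with the same replicate number, open squares are replicate 1, and bars beside the points are mean ± SD of replicates 2 to 4. Il2ra lies at 32.0 to 56.9 CPM in control and 88.6 to 124 CPM in 4A1 KO, and Slamf1 falls along every line while its genotypes overlap.

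**Figure D2:**
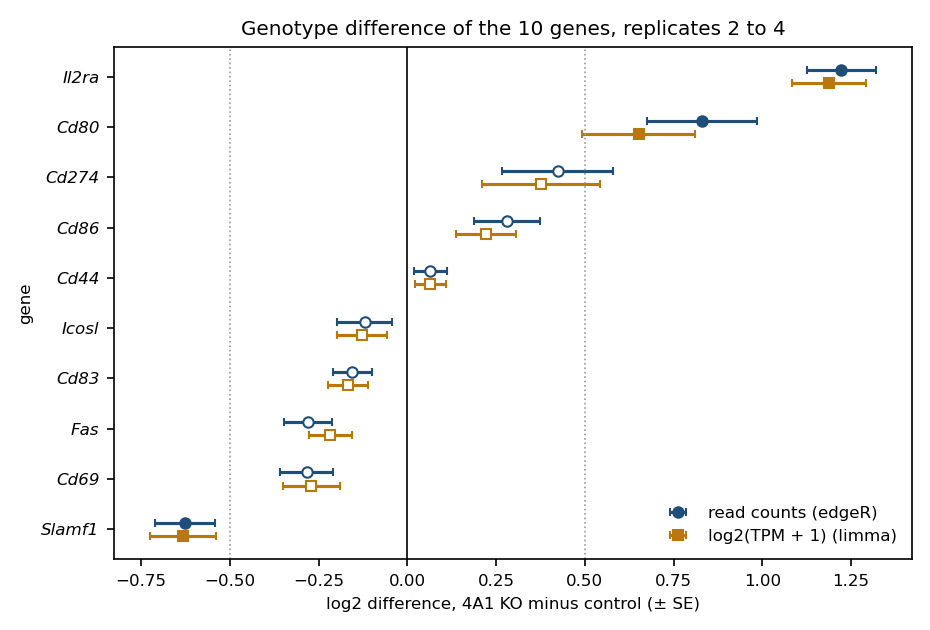
Log2 difference of 4A1 KO from control (± SE, n = 3 per genotype) for read counts (circles) and for log2(TPM + 1) (squares), with filled symbols where a gene was called and dotted lines at 0.5 either side of 0. Il2ra (1.22 in counts) and Cd80 (0.83) lie right of the dotted lines and Slamf1 (-0.63) left of them on both scales.

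Il2ra (ENSMUSG00000026770, GRCm39 chromosome 2, 11647618 to 11698004, plus strand) showed the largest difference of the 10. Its level in control replicates 1 to 4 was 33.9, 32.0, 55.3 and 56.9 CPM, and in 4A1 KO replicates 1 to 4 it was 88.6, 94.0, 124 and 111 CPM. Every 4A1 KO library lay above every control library, and within each genotype the batch B libraries were the higher ones. The mean over replicates 2 to 4 was 48.1 ± 13.9 CPM (SD, n = 3) in control and 110 ± 14.9 CPM in 4A1 KO. The fitted log2 fold change was 1.22 (SE 0.10, adjusted p 2.6e-05), a 2.33-fold rise, and on the TPM scale it was 1.19 (SE 0.10, adjusted p 0.00079). It was called under each of the 12 alternatives to the count test, with log2 fold changes of 1.06 to 1.35. A gene on the same strand that overlaps Il2ra, Gm37881, had 3 to 25 reads per library against 1293 or more for Il2ra.

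Of the other chains of the IL2 receptor, 1 rose and 1 was barely read. Il2rg, the common gamma chain shared with the IL4 receptor, rose from 219 ± 25.2 to 320 ± 18.0 CPM, with a log2 fold change of 0.56 (SE 0.05, adjusted p 4.4e-05) and no overlap between genotypes. Tested against the fold threshold itself, Il2rg was not called (glmTreat, adjusted p 0.28). Il2rb, the beta chain needed for signalling, was read at 0.337 to 1.14 CPM in control and 0.443 to 0.913 CPM in 4A1 KO libraries. These levels overlapped, and the log2 fold change was 0.09 (SE 0.38, adjusted p 0.86). Jak3, the kinase that binds the gamma chain, fell from 110 ± 3.76 to 65.9 ± 9.51 CPM (log2 fold change -0.75, SE 0.08, adjusted p 6.5e-05). Of the 6 genes in the list of IL2 receptor chains and signalling, 1 rose, 1 fell, and Il2rb, Jak1, Stat5a and Stat5b were not called, where 11.6% of all genes were called higher and 13.7% lower. Within a library, the TPM of Il2ra was 26.1 to 135 times that of Il2rb in control and 133 to 216 times in 4A1 KO. The ratio was higher in 4A1 KO in all 4 pairs. The mean log2 ratio was higher by 1.40, and the exact two-sided permutation test over the 8 libraries gave p = 0.057 (0.17 adjusted over 3 ratios), where 0.029 is the smallest p that 4 against 4 can give. The ratio tests did not use the pairing of the libraries.

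Among the ligands for T cell receptors, Cd80 rose while Cd86, Icosl and Cd274 were not called. Cd80 (ENSMUSG00000075122, GRCm39 chromosome 16, 38275923 to 38316697, plus strand) had 6.27, 15.4, 7.89 and 11.9 CPM in control replicates 1 to 4. In 4A1 KO replicates 1 to 4 it had 15.1, 19.1, 18.8 and 23.1 CPM. Each 4A1 KO library was above its numbered partner, and the genotypes overlapped only because control replicate 2, at 15.4 CPM, was just above 4A1 KO replicate 1. The means of replicates 2 to 4 were 11.7 ± 3.76 and 20.3 ± 2.44 CPM (SD, n = 3), and the log2 fold change was 0.83 (SE 0.16, adjusted p 0.0020), a 1.78-fold rise. With all 8 libraries it was 0.92 (adjusted p 0.0006). The call was lost in a test against the fold threshold itself (glmTreat, adjusted p 0.070). In TPM the difference was 0.65 (SE 0.16, adjusted p 0.017), and it was not called there without replicate 3 (adjusted p 0.071) or replicate 4 (0.055). Timmdc1, on the opposite strand across part of Cd80, had 708 to 1090 reads per library. Counting was strand-specific.

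Cd86 (ENSMUSG00000022901, chromosome 16, 36424044 to 36486443, minus strand) lies on the same chromosome as Cd80. It had 17.0 to 25.0 CPM in control and 22.6 to 25.9 CPM in 4A1 KO libraries. It was higher in 4A1 KO in all 4 pairs, by 0.05 to 0.44 on the log2 scale, but the genotypes overlapped and the fitted value of 0.28 (SE 0.09, adjusted p 0.030) was within the fold threshold. The ratio of Cd80 to Cd86 in TPM was 0.265, 0.619, 0.423 and 0.723 in control replicates 1 to 4 and 0.593, 0.690, 0.738 and 1.00 in 4A1 KO. Each 4A1 KO library exceeded its numbered partner, while control replicates 2 and 4 lay within the 4A1 KO range. The difference in log2 ratio was 0.65 (exact two-sided permutation test over 8 libraries, p = 0.17, 0.26 adjusted over 3 ratios).

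Icosl (ENSMUSG00000000732, chromosome 10, 77905136 to 77919747, plus strand) had 18.7 to 32.4 CPM in control and 17.5 to 31.6 CPM in 4A1 KO libraries. It was lower in 4A1 KO in all 4 pairs, by 0.04 to 0.46 on the log2 scale, and the fitted difference of -0.12 (SE 0.08, adjusted p 0.22; -0.06 without replicate 3) did not pass either threshold. The levels split by batch, with 23.2 CPM or more in batch A and 20.5 CPM or less in batch B.

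Cd274 (ENSMUSG00000016496, chromosome 19, 29344529 to 29365495, plus strand) had 34.0, 26.5, 11.2 and 15.1 CPM in control replicates 1 to 4 and 33.5, 27.0, 22.1 and 18.5 CPM in 4A1 KO. Both genotypes were nearly equal in batch A, and in batch B the 4A1 KO library was higher in each pair. The fitted log2 fold change was 0.42 (SE 0.16, adjusted p 0.045). Without replicate 2 it was 0.63 and called (adjusted p 0.026), and without replicate 3 it was 0.16. With all 8 libraries it was 0.30 (adjusted p 0.12). Plgrkt, on the opposite strand, had 272 to 592 reads per library. Pdcd1lg2, the other PD-1 ligand, was at 1.87 to 3.39 CPM over the 8 libraries, with a log2 fold change of -0.22 (SE 0.21, adjusted p 0.40) that lay between -0.52 and -0.0025 with a replicate left out. The TPM ratio of Cd274 to Pdcd1lg2 was 1.57 to 5.11 in control and 3.00 to 6.71 in 4A1 KO, higher in 3 of 4 pairs, and the log2 ratios differed by 0.53 (exact permutation test, p = 0.29 before and after adjustment), or by 0.26 without replicate 3.

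Slamf1 (ENSMUSG00000015316, chromosome 1, 171594695 to 171628764, plus strand) fell. It had 53.9, 53.6, 96.6 and 140 CPM in control replicates 1 to 4 and 43.2, 42.2, 54.7 and 86.2 CPM in 4A1 KO. Every 4A1 KO library was below its numbered partner, by 0.32 and 0.34 on the log2 scale in batch A and by 0.82 and 0.70 in batch B. The genotypes overlapped because control libraries of batch A were below the 4A1 KO libraries of batch B. The means of replicates 2 to 4 were 96.7 ± 43.1 and 61.0 ± 22.6 CPM (SD, n = 3), and the log2 fold change was -0.63 (SE 0.08, adjusted p 0.00032), a level 1.54-fold lower in 4A1 KO. The call rests on the pairing, since without the replicate block the adjusted p was 0.18, and it was also lost with glmTreat (0.16). The smallest fall when a replicate was left out was -0.52.

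The tested genes of the SLAM family were all lower in 4A1 KO, and some of them were called. Of the 11 genes in the list of the SLAM family and its adaptors, 7 were tested, all 7 had negative log2 fold changes, and 3 were called lower, against 13.7% of all genes, with a median of -0.47. Slamf6 fell from 86.9 ± 18.2 to 44.6 ± 9.30 CPM (log2 fold change -0.96, SE 0.07, adjusted p 2.1e-05). Cd48, the ligand of 2B4, fell from 128 ± 9.15 to 83.2 ± 11.2 CPM (-0.63, adjusted p 0.00010), and Cd244a, which encodes 2B4, from 6.65 ± 0.91 to 4.44 ± 0.63 CPM (-0.58, adjusted p 0.0089). The 4A1 KO and control libraries did not overlap for these 3 genes, and Cd244a was not called without replicate 3 (-0.38, adjusted p 0.077). Slamf7 (-0.47), Ly9 (-0.46), Cd84 (-0.46) and Slamf9 (-0.46) were not called, although Slamf7 was without replicate 2 (-0.59) and Ly9 and Cd84 were without replicate 4 (-0.52 and -0.53). The adaptor genes Sh2d1a and Sh2d1b2 were at 0 in all 8 libraries and Sh2d1b1 was at most 0.0247 CPM. In the annotation, Slamf1 and 6 of these 7 receptors (all but Slamf9) lie within 394 kb of chromosome 1, from 171386708 to 171780737. All 7 genes of the cluster had negative log2 fold changes, 4 of them called, where 25.3% of all tested genes were called. Of 3 other tested genes inside the interval (Tma7-ps, Gm10521 and Gm37065) 1 was called, too few for a comparison. Cd244a and Ly9 overlap on opposite strands. The list was drawn up with earlier results of these data known, so its direction is a description.

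Cd69, Cd83 and Fas were lower in 4A1 KO in all 4 pairs, with fitted differences under the fold threshold. Cd69 (ENSMUSG00000030156, chromosome 6, 129244288 to 129252399, minus strand) had 143 to 244 CPM in control and 134 to 170 CPM in 4A1 KO libraries, with a log2 fold change of -0.28 (SE 0.08, adjusted p 0.012). The genotypes overlapped, and with all 8 libraries the adjusted p was 0.11. Without replicate 4, whose pair had the largest difference (-0.53), the log2 fold change was -0.16. Cd83 (ENSMUSG00000015396, chromosome 13, 43938251 to 43956634, plus strand) had 500 to 546 CPM in control and 442 to 485 CPM in 4A1 KO libraries. Its genotypes did not overlap and its log2 fold change was -0.15 (SE 0.06, adjusted p 0.043), or -0.08 (adjusted p 0.35) without replicate 3. Fas (ENSMUSG00000024778, chromosome 19, 34268001 to 34305173, plus strand) had 33.8 to 42.0 CPM in control and 28.9 to 33.7 CPM in 4A1 KO libraries, also without overlap, although the highest 4A1 KO library (33.67) and the lowest control library (33.75) were almost equal. Its log2 fold change was -0.28 (SE 0.07, adjusted p 0.0079). Without the replicate block the adjusted p of Cd69, Cd83 and Fas was 0.24, 0.10 and 0.072. Cd44 (ENSMUSG00000005087, chromosome 2, 102641486 to 102732010, minus strand) showed no call, with 523 to 805 CPM in control and 570 to 855 CPM in 4A1 KO libraries and a log2 fold change of 0.07 (SE 0.05, adjusted p 0.27).

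The genes whose products act with CD69, FAS and CD44 moved unequally. All 3 genes of the list around CD69 fell: S1pr1 from 8.07 ± 3.43 to 5.05 ± 1.54 CPM (log2 fold change -0.64, adjusted p 0.0020), S1pr4, a related receptor, from 8.16 ± 1.25 to 4.22 ± 0.21 CPM (-0.94, adjusted p 0.00036), and Klf2, a transcription factor that drives S1pr1, from 23.3 ± 2.94 to 14.1 ± 2.81 CPM (-0.73, adjusted p 0.0010). S1pr1 was not called without the replicate block (adjusted p 0.14), and Klf2 was at 23.4 CPM in 4A1 KO replicate 1, within the control range of 19.98 to 25.6. In the list of Fas death signalling, 5 of 8 genes fell and none rose, against 13.7% and 11.6% of all genes. Among them, the initiator Casp8 fell from 54.9 ± 4.52 to 33.0 ± 4.82 CPM (log2 fold change -0.74, adjusted p 3.5e-05) and the adaptor Fadd from 19.8 ± 1.71 to 11.5 ± 0.47 CPM (-0.79, adjusted p 9.9e-05). Bid, which links caspase-8 to mitochondria, fell by 0.68. Cflar, which encodes the caspase-8 inhibitor c-FLIP, was not called (0.22, adjusted p 0.018). The 4 genes of the list of linkers between CD44 and the cytoskeleton (Ezr, Rdx, Msn and Nf2) included 0 calls in the edgeR test, with log2 fold changes between -0.11 and 0.14 and 1 adjusted p under 0.05.

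**Figure D3:**
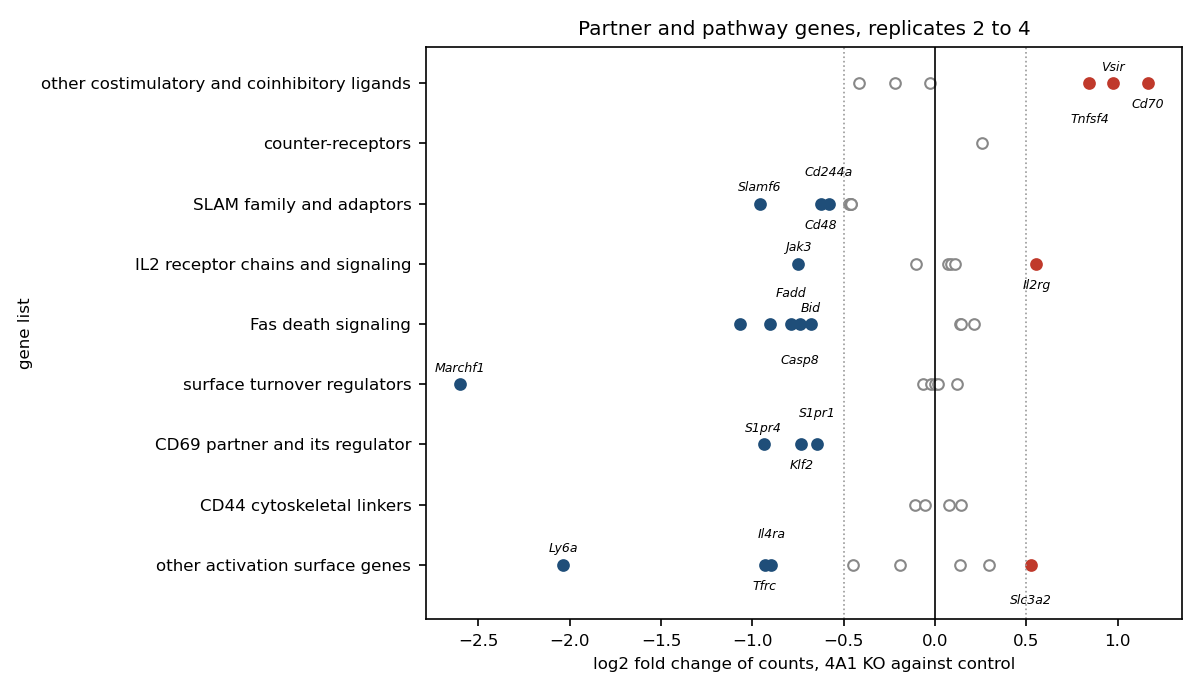
Log2 fold change of read counts (4A1 KO against control, replicates 2 to 4) for the 49 tested partner and pathway genes, 1 row per list. Filled points are called genes, red where higher and blue where lower in 4A1 KO, with the names of those given in the text, open points were not called, and dotted lines mark 0.5 either side of 0. The called genes of the SLAM, Fas and CD69 lists lie left of 0, and those of the costimulatory ligand list right of 0.

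Among other ligands for T cell receptors, 3 of the 6 tested genes rose (11.6% of all genes were called higher) and none was called lower (13.7% of all genes). Cd70, the ligand of CD27, had 1.98 to 3.19 CPM in control and 5.27 to 6.17 CPM in 4A1 KO libraries, with a log2 fold change of 1.16 (SE 0.14, adjusted p 0.00019). Its levels did not overlap between genotypes. Tnfsf4, which encodes OX40 ligand, rose from 1.94 ± 0.59 to 3.43 ± 0.35 CPM (log2 fold change 0.84, adjusted p 0.0095), and was not called without replicate 3 (0.54, adjusted p 0.055). Vsir, which encodes the inhibitory ligand VISTA, rose from 1.59 ± 0.63 to 3.17 ± 1.43 CPM (0.97, adjusted p 0.0081), a call not made without the replicate block (adjusted p 0.084) or without replicate 2 (0.082). Tnfsf9, the ligand of 4-1BB, was lower in all 4 pairs and not called (-0.42, SE 0.11, adjusted p 0.014), but it was called lower with all 8 libraries (-0.58, adjusted p 0.023) and without replicate 2 (-0.52, adjusted p 0.018). Without replicate 4 it was -0.27 (adjusted p 0.12), and without the replicate block the adjusted p was 0.28. Of the 5 T cell counter-receptors, Cd28, Icos, Fasl and Pdcd1 had too few reads to be tested and Ctla4, at most 0.675 CPM, was not called.

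Of 6 genes that control the turnover of these proteins at the surface, Marchf1 was the only call. Marchf1, a ubiquitin ligase that removes CD86 and MHC class II from the surface, had 9.39, 10.7, 14.3 and 17.2 CPM in control replicates 1 to 4 and 1.52, 2.02, 1.26 and 3.97 CPM in 4A1 KO. The genotypes did not overlap, and the log2 fold change of -2.60 (SE 0.22, adjusted p 3.3e-05) was the most negative among the partner genes. Marchf8, Cmtm4, Cmtm6, Adam10 and Adam17 had log2 fold changes between -0.07 and 0.12. In the list of other activation surface genes, 1 of 8 rose and 3 fell. Slc3a2, the CD98 heavy chain of amino acid transporters, rose from 291 ± 20.7 to 419 ± 29.5 CPM (log2 fold change 0.53, adjusted p 0.00018), and stayed under the fold threshold without replicate 3 (0.43). Tfrc, the transferrin receptor, fell by 0.93 (342 ± 52.0 to 181 ± 39.3 CPM), Il4ra, the alpha chain of the IL4 receptor, by 0.90 (318 ± 98.6 to 167 ± 30.9 CPM), and Ly6a, which encodes Sca-1, by 2.04 (22.7 ± 9.68 to 5.51 ± 2.29 CPM). Cd40, the receptor for the feeder ligand, was not called (log2 fold change -0.19). Over the 9 lists together 21 of 49 tested genes were called, 5 higher and 16 lower, against 25.3%, 11.6% and 13.7% of all tested genes. Their median log2 fold change was -0.11 and that of all genes 0.01.

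Levels were compared between genes in TPM, which are scaled by transcript length. In control replicates 2 to 4, Cd83 at 446 ± 23.1 TPM (SD, n = 3) and Cd44 at 391.5 ± 87.3 TPM were the most abundant of the 10, and their ranges overlapped. Cd69 followed at 217 ± 65.5 TPM, its highest library (291.5) just under the lowest of Cd44 (291.9). Slamf1 at 67.2 ± 31.6 and Fas at 53.8 ± 5.97 TPM overlapped. Il2ra (22.6 ± 6.81) overlapped with Icosl (16.7 ± 4.94), and Icosl with Cd86 (16.5 ± 2.93 TPM). Cd86 did not overlap with Cd80, and Cd80 (9.74 ± 3.09) and Cd274 (9.14 ± 3.98 TPM) were the lowest pair. In 4A1 KO the order differed at several places, among them Il2ra and Slamf1. Il2ra took the fourth place at 51.6 ± 7.90 TPM, with ranges overlapping those of Fas (46.0 ± 3.23 TPM), and Slamf1 the sixth at 41.7 ± 16.4 TPM. Cd80, at 15.5 ± 2.91 TPM, was within the range of Icosl (15.3 ± 5.29 TPM).

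**Figure D4:**
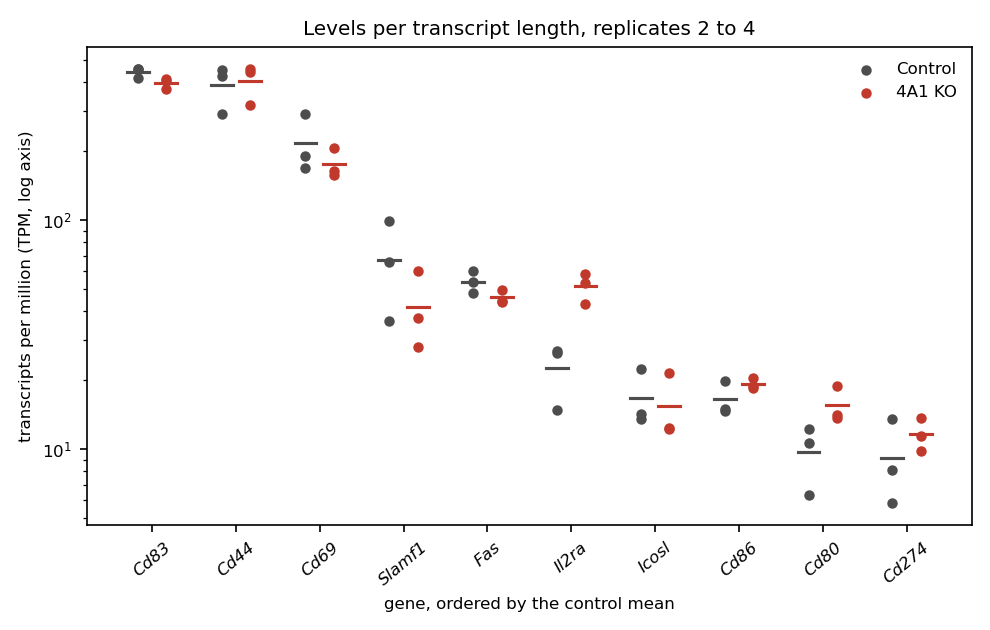
Deposited TPM (log axis) of the 10 genes in replicates 2 to 4, ordered by the control mean. Points are libraries (grey control, red 4A1 KO) and short lines are means. Cd83, Cd44 and Cd69 lie above 157 TPM in every library shown, and Il2ra moves from the sixth to the fourth place.

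Several of the 10 genes also differed between batches, a comparison added after the values of the libraries had been seen. In the fit of all 8 libraries, 5 of 10 genes differed between batches past both thresholds, against 6.75% of all genes. Slamf1 (log2 fold change 0.91 for batch B against A, SE 0.13), Cd44 (0.56, SE 0.04) and Il2ra (0.56, SE 0.08) were higher in batch B. Cd274 (-0.87, SE 0.15) and Icosl (-0.68, SE 0.09) were lower. The same 5 genes were called with replicates 2 to 4 only. Cd44 had 523 to 572 CPM in the 4 batch A libraries and 779 to 855 CPM in the 4 batch B libraries, whatever the genotype. Between sexes, 1 of 10 genes was called, against 2.43% of all genes. That gene was Cd80, higher in females (mean 17.4 CPM) than in males (12.0 CPM) by 0.62 (SE 0.15, adjusted p 0.044). With replicates 2 to 4 only, the difference was 0.42 (SE 0.19, adjusted p 0.45) and not called.

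**Figure D5:**
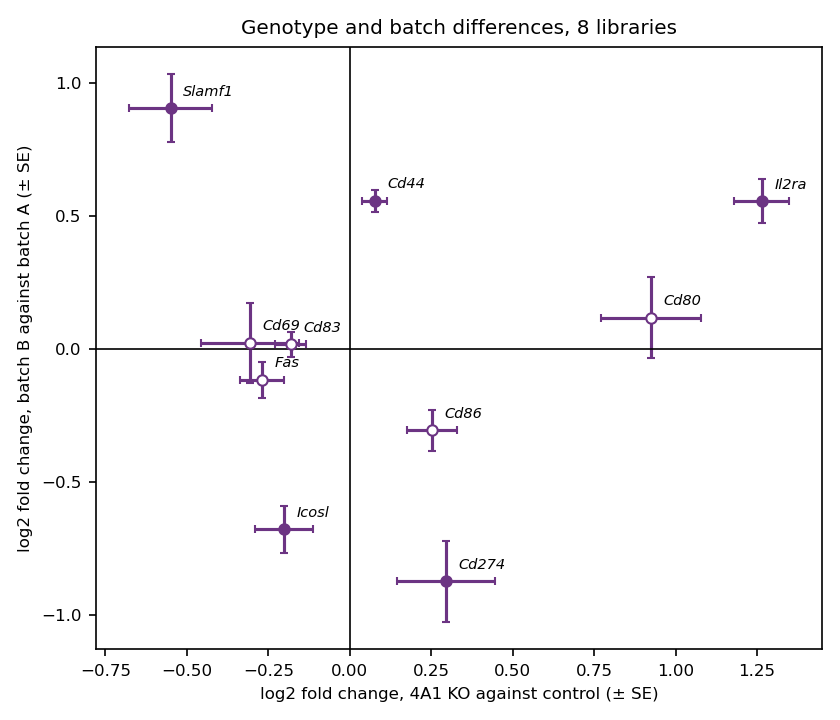
Fitted log2 fold change between genotypes (x axis) and between batches (y axis) for the 10 genes in all 8 libraries, with SE bars. Filled points are the 5 genes called between batches. Il2ra and Cd80 lie far right, Slamf1 at the upper left, and Icosl and Cd274 lowest.

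Whether the genotype effect differed between batches or sexes was tested as an interaction in all 8 libraries. With edgeR, 0 of 10 genes had an adjusted p under 0.05 for batch by genotype, against 0.00704% of all genes. At an unadjusted p under 0.05 there were 2 of 10, against 4.29% of all genes, and neither passed the adjustment (adjusted p 0.999). These were Il2ra (interaction -0.41, SE 0.11) and Cd274 (0.61, SE 0.24). For sex by genotype 0 of 10 passed, against 0.0% of all genes, and 2 (Cd80 and Cd83) had an unadjusted p under 0.05, against 2.85% of all genes. Each batch and each sex held 2 pairs. The within-batch rises of Il2ra were 1.39 and 1.56 on the log2 scale in batch A and 1.16 and 0.97 in batch B. Those of Cd80 were 1.27 and 0.31 in batch A and 1.25 and 0.96 in batch B.

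The study used a published list of genes induced 2 h after stimulation of B cells with LPS or anti-IgM and a list for 24 h of anti-IgM. Of the 10 genes, 7 are on the 2 h list (Cd69, Cd80, Cd86, Cd83, Fas, Il2ra and Cd274), and only Il2ra is on the 24 h list. Among these 7, Il2ra and Cd80 rose, where 11.6% of all genes were called higher, and 5 were not called, of which Cd86 and Cd274 had positive and Cd69, Cd83 and Fas negative log2 fold changes. Slamf1, the gene that fell, is on neither list.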

How the data were processed

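RNA of 8 libraries was sequenced as directional paired reads. The authors trimmed reads with Trim Galore 0.6.6, aligned them to GRCm39 with HISAT2 2.1.0 and deposited unnormalised read counts per gene from Seqmonk (merged isoforms, opposing strand-specific reads). The deposited TPM were calculated by the authors with StringTie 2.1.1. How reads mapping to several places were counted is not given in the sources used here. Per-sample columns not used numbered 0.

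Counts were filtered with filterByExpr, TMM-normalised and tested with edgeR 4.0.16 (quasi-likelihood, two-sided, Benjamini-Hochberg adjustment) in R 4.3.3, with batch, sex and genotype as terms. In the 6 libraries used, batch and sex amount to the replicate number as a block. The numbers mark a shared batch and sex in the labels, and the deviations of same-numbered libraries from their genotype means correlated across genes (r 0.63, 0.54 and 0.47 for replicates 2, 3 and 4). TPM were tested with limma 3.58.1 on log2(TPM + 1) for the 12976 genes that averaged 1 TPM or more, so that differences of low genes are understated. Ratios were tested with exact permutation tests in scipy 1.17.1. DESeq2 1.42.0 served as an alternative. Coordinates are from GENCODE M39 on GRCm39.

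The members and lists were chosen with earlier results of these data known. Genes named are the 10 members, Eif4a1, up to 4 called genes of each partner list by adjusted p, a few direct partners (Il2rb, Il2rg, Pdcd1lg2, Marchf1, S1pr1) and markers that move or check the cell type. Other genes were named after their values had been seen, to account for the rest of a list. Some genes of the lists enter the counts and are not reported here.

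Between 38488341 and 43210858 reads per library were counted in the 6 libraries. Tested on simulated data with the 14218 genes of the genotype comparison, edgeR recovered 181 of 200 changed genes (90.5%) with 7 false calls. The simulation held no batch or sex effect and fewer changed genes than were called here. Its fold changes were larger than those of Cd80 and Slamf1. The share recovered is therefore not a sensitivity for the results above.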

Additional observations from a re-analysis of the deposited data

Results flagged for a closer look

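In 68 groups of 4 libraries examined, 2 held a library that stood apart from the other 3 by Dixon's criterion at the 95% level, where chance would give about 3.4. Slamf6 in control replicate 2 was at 108 CPM, and the nearest control library was at 78.5 CPM (gap over range 0.876). The TPM ratio of Il2ra to Il2rb in 4A1 KO replicate 1 was 216, and the nearest 4A1 KO library was at 143 (gap over range 0.879). That ratio divides by a gene read at under 1.2 CPM.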

How the results depend on the processing

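Il2ra was called under all 12 alternatives of the count test. Under glmTreat, which tests against the fold threshold, 1 of the 10 genes (Il2ra) and 12 of the partner genes (21 in the test reported) were called, and 1627 of all genes in place of 3596. Without the replicate block, 2 of the 10 were called in counts (Cd80 and Il2ra) and 1 in TPM (Il2ra), with 3000 calls over all genes. Leaving out each replicate in turn gave 3 to 4 called genes of the 10 in counts and 2 to 3 in TPM, 18 to 24 called partner genes, and 3083 to 3821 calls over all genes. No direction of the 10 genes was reversed under these alternatives. Some uncalled partner and marker genes did change sign, among them Il2rb, Adam10, Marchf8 and Col1a1 (Il2rb, 0.09 as reported, lay between -0.42 and 0.52 with a replicate left out). Without the filter on low TPM, Cd80 was not called (adjusted p 0.10), and leaving out replicate 3 or 4 did the same on that scale. A tally was kept for the 10 genes, the ratios and the counts of called genes. In it, 243 values kept their direction and side of the threshold or moved within the spread. Beyond these, 5 moved further, 8 lost a call and 1 gained one. Calls of single partner and marker genes, some of which were also lost or gained, are not in this tally. The cause of these changes was not tested. Reads were enough for every member (at least 251 in a library), and n was 3 mice per genotype. With 3 against 3 libraries a permutation test cannot go below 0.10, and ratios were therefore tested over 8.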
